A study of Zea mays with 10 samples.

Results

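Chromatin and histone genes were followed in shoot apices of maize seedlings that lack a functional *leafbladeless1* (*lbl1*), a gene of the ta-siRNA pathway, and in wild-type apices. The members are all genes whose name in the deposited expression table begins with 1 of 27 prefixes of chromatin gene families, followed by nothing but digits, points or the letters A to D. The rule reads names and no measured value. It found 48 of 109874 genes, among the 1665 rows of the table that carry a name. Of the 27 prefixes, 13 had a match. No name matched the other prefixes, among them those of the histones H2A and H2B and of the CHR, CHB, GTE and MEZ families.

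RNA came from vegetative apices of 2-week-old seedlings, dissected so that the meristem and at most 5 primordia of leaves were kept. The wild type is labelled as the inbred B73. The mutant is homozygous for *lbl1-rgd1*, an allele crossed into B73 at least 3 times and taken from segregating families. It may therefore carry sequence from its donor, around *lbl1* and elsewhere in the genome. RNA deep sequencing used 2 samples per genotype. Both genotypes share the age and the growth conditions, and the B73 background as far as the crosses restored it in the mutant. The table gives 1 level per genotype over its 2 samples, in RPKM, reads scaled by transcript length and by the number of mapped reads. There is therefore no SD, no test over samples was possible, and no difference below can be set against the spread between replicates. Differences are given as sizes, as the ratio of *lbl1* to wild type or its log2.

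DNA in the nucleus is wound around octamers of the core histones H2A, H2B, H3 and H4, and linker histone H1 binds between them. Core histones are made mainly during S phase, when the genome is copied, so their transcripts mark dividing tissue such as the shoot apex. Assembly factors deposit histones, deacetylases and SET-domain methyltransferases alter their tails, and DNA methyltransferases mark cytosines. In plants, small RNA pathways guide part of that DNA methylation.

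The *lbl1* gene itself (GRMZM2G020187, chromosome 6, 17165362 to 17171793, B73 RefGen_v2) had 301 RPKM in wild type against 226 in *lbl1*. Whether the allele lowers its own transcript is not given in the sources used here, so these values are no check of the genotype. Of 9 markers of the meristem and young leaf looked up by name, 4 were found, all of them meristem genes. Among these, *KN-1* was at 69.3 and 123 RPKM and *LG3* at 25.6 and 51.3 RPKM, whereas *fea2* was at 20.3 and 15.8 RPKM. Green leaf genes of photosynthesis summed to 69.6 RPKM in wild type against 100.5 in *lbl1*, over 8 genes of which *PEP1* and *CAB48* were listed at 0 in both. Of the other 6, 4 were higher and 2 lower, and *CAB1* alone was at 40.5 and 61.3 RPKM. In bulk tissue, fewer cells of a type and less RNA per cell cannot be told apart. The part of these markers in the differences below was not tested.

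Taken over all levels, chromatin and histone genes had a median ratio close to that of all genes, which was itself slightly below 1. At high levels, described below, the medians lay further apart. At least 1 RPKM in both genotypes was reached by 46 of the 48 genes, and 33 of these were lower in *lbl1* and 13 higher as deposited. Over all 24760 genes at that level, 57.4% were lower. The median log2 ratio was −0.13 for the members and −0.10 for all genes. Measured against that median gene, 29 members were lower and 17 higher, a scale on which all genes divide equally.

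Only *H3C2* gene GRMZM2G418258, 1 of the 46 members that reached 1 RPKM in either genotype, differed at least 2-fold. Over all 29929 genes at that level, 25.4% did. At least 1.5-fold, 1 member was higher, where the share over all genes was 19.2%, and 5 were lower, where it was 23.6%. Either way, 6 of 46 members passed 1.5-fold, against 42.7% of all genes. The spread of the ratios depends on the level, and 22 of the members were at 500 RPKM or more in a genotype. Among these 22, 3 were at least 1.5-fold lower and none higher. Of all 293 genes at that level, 7.85% were that much lower, 16.7% that much higher and 24.6% either. Of the same 22 members, 17 were lower in *lbl1* by any amount, beside 39.7% of all genes of that level. The median log2 ratio was −0.14 for these 22 and 0.11 for all genes of that level. All 15 histone H4 genes, which carry the same name, are among these 22, and 11 of the 15 were lower. The 22 members are therefore not independent of each other.

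**Figure D1:**
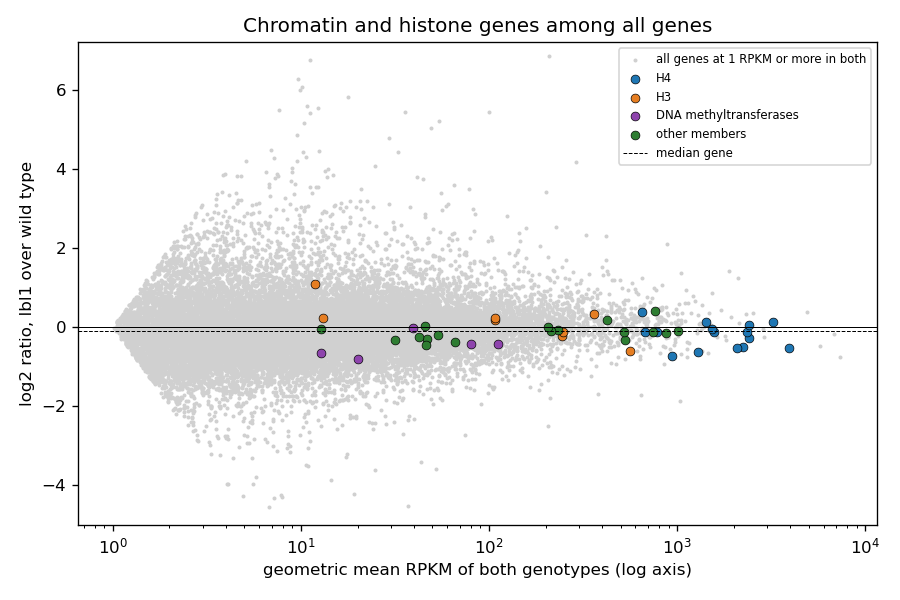
Each point is 1 gene, placed by the geometric mean RPKM of both genotypes on a log axis and by its log2 ratio of *lbl1* over wild type. Grey points are all 24760 genes at 1 RPKM or more in both genotypes, colored points are the 46 members, and the dashed line is the median gene at −0.10. Members lie within −0.82 and 1.09, inside the wider grey cloud, and the H4 genes sit at the right edge.

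Histone H4 stood out by its abundance. H4 is the most conserved core histone, and 15 genes on 7 chromosomes carry the same name, *H4C13*. In wild type 10 of them were among the 30 most abundant transcripts of the table, and in *lbl1* 7 were. Together they held 2.92% of all RPKM in wild type and 2.43% in *lbl1*. Their summed level was 29929 RPKM in wild type against 25493 in *lbl1*, a ratio of 0.852. All genes at 500 RPKM or more in a genotype, these 15 among them, summed to a ratio of 1.06.

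The ratios of the 15 H4 genes were spread on both sides of 1, and without values per sample their differences from each other could not be tested. The ratio was below 0.75 for 5 genes, between 0.75 and 1 for 6, and above 1 for 4. AC233865.1_FG001 (chromosome 7, 146607683 to 146607994), the highest, had 4758 RPKM in wild type against 3284 in *lbl1*. It ranked 4th in wild type and 7th in *lbl1* among all genes. Its listed locus is 312 bp long, whereas that of GRMZM2G143780, shared with another gene, is 2708 bp. A locus is a span on the genome, and the transcript lengths are not given in the sources used here. RPKM is scaled by transcript length, so ranks and shares of the H4 genes depend on lengths that could not be compared. Without AC233865.1_FG001 the summed H4 level was 25171 and 22209 RPKM, a ratio of 0.882. GRMZM2G084195 (chromosome 4, 156480592 to 156482133), next in wild type, was at 3073 RPKM there but 3373 RPKM in *lbl1*, where it was the highest H4 gene.

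Both H4 genes past 1.5-fold were lower in *lbl1*. AC212565.3_FG001 (chromosome 8, 16166029 to 16166694) had 1213 RPKM in wild type against 727 in *lbl1*, a 1.67-fold difference. GRMZM2G072855 (chromosome 7, 119949822 to 119950881) was at 1600 and 1034 RPKM, which is 1.55-fold. Relative to the median gene the log2 ratios were −0.64 and −0.53, so that only AC212565.3_FG001 would pass 1.5-fold on that scale. The highest ratio, 1.30, belonged to GRMZM2G143780 (chromosome 8, 169261568 to 169264275), at 569 and 742 RPKM, the lowest H4 gene in wild type. It is the H4 gene that shares its locus, and with its partner it summed to 772 and 912 RPKM.

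Neighboring H4 genes also had unequal ratios. GRMZM2G073275 lies 7.41 kb from GRMZM2G072855 and was at 2659 RPKM in wild type against 2204 in *lbl1*, a ratio of 0.829 beside 0.646 for its neighbor. On chromosome 2, GRMZM2G479684 and GRMZM2G421279 lie close together too. Their ratios were 0.912 and 1.03, on levels of 2448 and 2377 RPKM in wild type. The copies encode nearly the same protein, and the authors kept uniquely mapped reads alone, so reads matching several copies were left out. Levels of single H4 genes are uncertain for that reason.

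**Figure D2:**
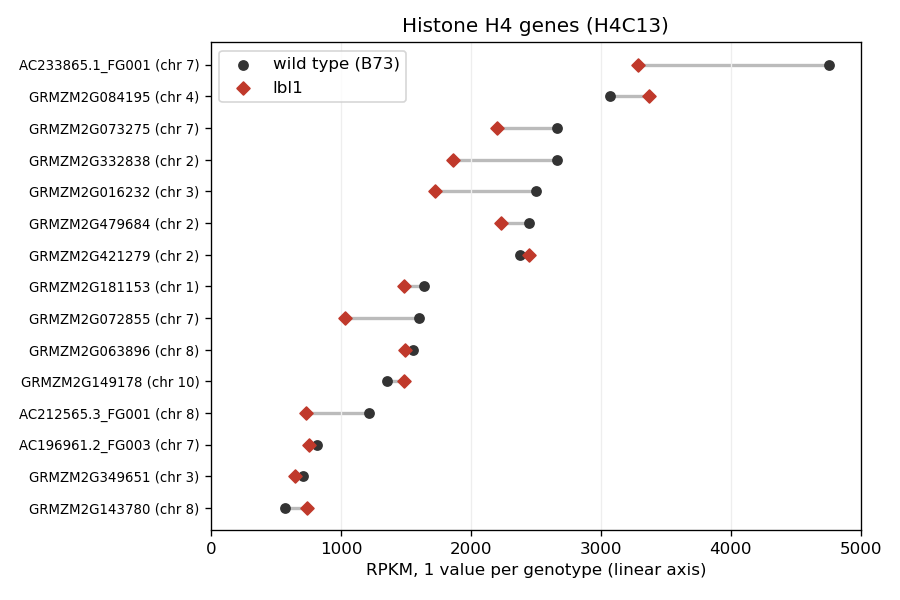
Levels of the 15 H4 genes in RPKM on a linear axis, 1 value per genotype, with wild type as circles and *lbl1* as diamonds. Genes are ordered by the wild-type level, from 4758 to 569 RPKM, and 11 of the 15 diamonds lie left of their circle. Of all genes at 500 RPKM or more in a genotype, 39.7% were lower.

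For histone H3, the picture depended on a second gene annotated at each locus. H3 carries most of the tail residues that chromatin enzymes modify, and 9 genes on 6 chromosomes are named *H3C2*. Of the 8 above 1 RPKM, 5 were higher in *lbl1* and 3 lower, with a median log2 ratio of 0.21. Their summed level was nevertheless lower, with all 9 genes at 1757.5 RPKM in wild type against 1585.3 in *lbl1*, a ratio of 0.902. Each of the 9 shares its listed locus with 1 or 2 further genes that carry no name. The library kit is not described as strand specific, so reads of overlapping genes could be divided between them.

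GRMZM2G130079 (chromosome 9, 17724180 to 17725237) had the highest level of the H3 genes, with 693 RPKM in wild type against 456 in *lbl1*. This 1.52-fold lower level was accompanied by a lower one of GRMZM2G430056 at the same locus, at 1331 and 831 RPKM. GRMZM5G864735 (chromosome 2, 54631460 to 54632176) was instead higher in *lbl1*, at 321 and 403 RPKM. Its locus partner GRMZM2G389965 was at 1160 RPKM in wild type against 353 in *lbl1*, so gene and partner went in opposite directions.

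The same opposition was found at GRMZM2G418258 (chromosome 4, 112873833 to 112875311), the member that differed 2-fold. It was at 8.15 RPKM in wild type against 17.4 in *lbl1*, a ratio of 2.14. Its partner GRMZM2G553069 was at 698 and 566 RPKM, and the sum of both was 706 and 583 RPKM. With the partner counted in, the higher level of this H3 locus turned into a lower one, at a ratio of 0.826.

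Summed over each locus, all 9 loci of *H3C2* genes were lower in *lbl1*, and 5 of them were at least 1.5-fold lower. Of all 273 shared loci with a summed 200 RPKM or more in wild type, 48.7% were lower and 12.8% at least 1.5-fold lower. The ratios of the 9 sums ran from 0.511 to 0.855, with a median of 0.636. Altogether the 9 loci summed to 6276 RPKM in wild type against 3980 in *lbl1*. The *H3C2* genes made up 28.0% of that sum in wild type and 39.8% in *lbl1*. Whether the partners are antisense genes or other models of the same histone gene is not given in the sources used here, so a sum need not be a level of H3 transcript. For GRMZM2G376957, GRMZM2G418258 and GRMZM2G355773, the H3 gene was 3.77%, 1.15% and 0.0729% of the sum in wild type. The partner genes alone summed to 4518 and 2395 RPKM, and at each of the 8 loci with a partner at 1 RPKM or more the partner was lower in *lbl1*. Summing was chosen after the values were seen, and RPKM of transcripts of unequal length add only approximately.

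Of the other H3 genes, GRMZM2G447984, 146 kb from GRMZM5G864735, was at 264 RPKM in wild type against 225 in *lbl1*. Its partner was listed at 0, so that gene and locus had the same ratio, 0.855. GRMZM2G179005 (chromosome 10, 115518200 to 115519238) was at 260 and 238 RPKM, with a partner at 23.9 and 3.06 RPKM. GRMZM2G376957 on chromosome 6, 59.7 Mb from *lbl1*, was at 12.1 and 14.3 RPKM beside a partner at 310 and 156 RPKM. GRMZM2G401581 and GRMZM2G475899 on chromosome 3 were at 101 and 99.3 RPKM in wild type, against 115 and 117 in *lbl1*. The sums at their loci had ratios of 0.526 and 0.677. GRMZM2G355773 was below 1 RPKM in both genotypes, at 0.275 and 0.121, and its partners at 377 and 227 RPKM.

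**Figure D3:**
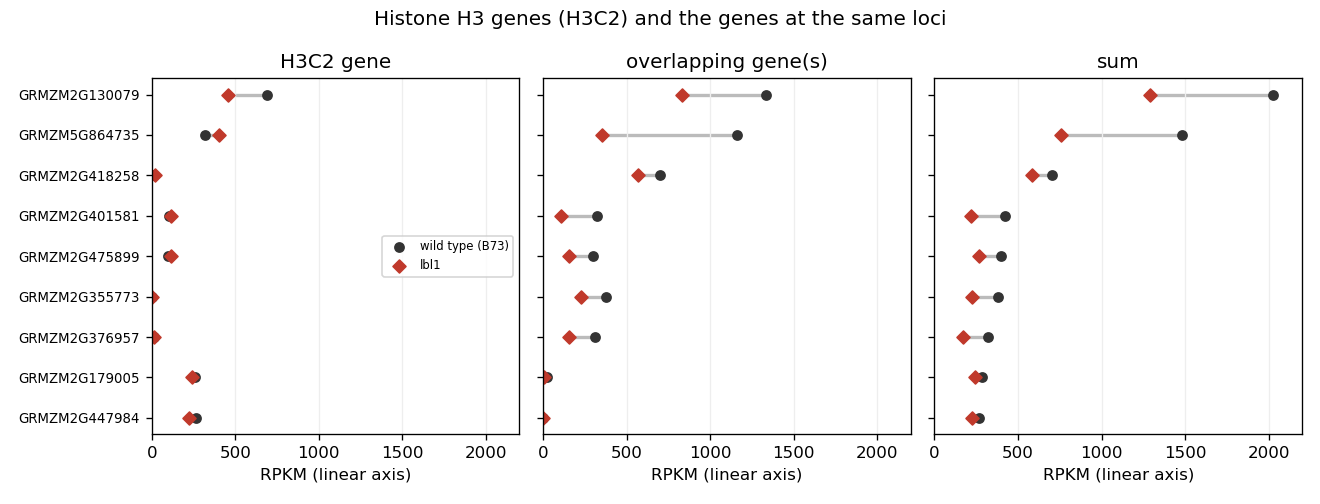
RPKM on linear axes for the 9 *H3C2* genes (left), the unnamed gene or genes listed at the same locus (middle) and their sum (right), with wild type as circles and *lbl1* as diamonds. The left panel holds differences in both directions, whereas all 9 sums on the right are lower in *lbl1*.

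Linker histones and high mobility group proteins are abundant proteins that bind between or beside nucleosomes. Apart from *hon108*, their genes were at high levels in both genotypes. *hon101* (GRMZM2G080274, chromosome 2, 16036480 to 16038592), a linker histone H1 gene, had 916 RPKM in wild type against 824 in *lbl1*, and a second gene at its locus was at 45.4 and 26.4 RPKM. *hon108* (GRMZM2G108424), which RefSeq also lists as *smh4* of the single myb histone family, was at 74.8 and 57.5 RPKM, a ratio of 0.768. *HMGc1* (GRMZM2G013821, chromosome 5, 194043178 to 194045076) was higher in *lbl1*, at 668 and 880 RPKM. The authors' own test is listed as failed for *HMGc1*, as for *hda110*. The ratio of 1.32 for *HMGc1* was the largest of the members that share their locus with no other gene. *HMGd1* (GRMZM2G066528, chromosome 7, 146895009 to 146896961) was at 1049 and 976 RPKM. The second gene at its locus, GRMZM5G891837, was listed at 0 in wild type but at 629 RPKM in the mutant, so its ratio of 0.931 turns to 1.53 when both are summed.

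Nucleosome assembly genes all stayed below a 1.5-fold difference, as did most genes of the table, of which 42.7% passed it. The *nfa* genes encode NAP1-type histone chaperones. *nfa101* (GRMZM2G140051) had 589 RPKM in wild type against 470 in *lbl1*. *nfa103* was at 399 and 451 RPKM, and *nfa104* at 239 and 228 RPKM, so 1 of the 3 was higher. The *nfc* genes encode WD40 histone-binding proteins of the MSI1 and RbAp48 type, which serve in assembly, deacetylase and Polycomb complexes. *nfc102* (GRMZM2G316113, chromosome 8, 154456893 to 154470561) was at 206.5 and 206.6 RPKM, the smallest difference of all members. *nfc101* was at 222 and 206 RPKM and *nfc103* at 52.0 and 42.3 RPKM.

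Histone deacetylase genes comprised an abundant and a moderate class. The HD2 type is particular to plants, and *HDT3* (GRMZM2G159032, chromosome 6, 161231386 to 161234113) had 779 RPKM in wild type against 707 in *lbl1*. It lies 144 Mb from *lbl1*. *HDT2* was at 544 and 500 RPKM. The *HDA* genes were lower in level, in a range from 39.4 to 57.2 RPKM over both genotypes. *hda113*, the highest of them, was at 57.2 and 49.9 RPKM, *hda110* at 53.9 and 39.4 RPKM, and *HDA102* at 45.0 and 46.1 RPKM. None of the 5 deacetylase genes differed 1.5-fold. Of all genes from 10 to below 150 RPKM in wild type, 26.6% did, and of those at 500 RPKM or more in a genotype, 24.6%.

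Of the 11 name groups, the DNA methyltransferase genes had the lowest median ratio as deposited, 0.736. All 5 were lower in *lbl1* as deposited, with a median log2 ratio of −0.44, and 2 were at least 1.5-fold lower. Their wild-type levels lay between 10 and 150 RPKM. Of all genes in that band, 60.5% were lower and 18% at least 1.5-fold lower. Relative to the median gene 4 of the 5 were lower.

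*ZMET1* (GRMZM2G333916, chromosome 7, 11127929 to 11134326) had 26.7 RPKM in wild type against 15.1 in *lbl1*, the lowest ratio of the members at 1 RPKM or more, 0.567. *dmt101* (GRMZM2G334041, chromosome 7, 11146638 to 11152649) was at 16.1 and 10.2 RPKM, a ratio of 0.634. Both names belong to the MET1 type, which maintains methylation at CG sites. They lie 12.3 kb apart, and RefSeq gives *ZMET1* and *met1* as synonyms of its single *dmt101* entry, so the rows may not stand for independent genes. The gene annotated between them, GRMZM2G333997, is a synonym of that entry too, and was at 2.69 and 2.45 RPKM. Relative to the median gene, *ZMET1* (log2 −0.72) and not *dmt101* (−0.56) would pass 1.5-fold.

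The chromomethylases, a plant type that maintains methylation at CHG sites, had nearly equal ratios. *MET2A* (GRMZM2G025592, chromosome 10, 142187476 to 142195230), which RefSeq names *met2*, was at 130.0 RPKM in wild type against 95.7 in *lbl1*. *DMT105* (GRMZM2G005310, chromosome 2, 10337754 to 10347269), also known as *Zmet5*, was at 93.4 and 68.7 RPKM. Both ratios were 0.736, on different chromosomes. *dmt106* (GRMZM2G065599, chromosome 8), whose type is not given in the sources used here, was at 40.0 and 39.3 RPKM. Unlike *MET2A* and *DMT105*, it was above the median gene on the relative scale. Whether the ratios of the 5 genes differ from each other could not be tested.

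Histone methylation was represented by 4 genes. The *sdg* genes encode SET-domain proteins, and *sdg110* (GRMZM2G130910) had 35.5 RPKM in wild type against 28.1 in *lbl1*. *sdg113* was at 13.1 and 12.6 RPKM. The *FIE* genes encode a WD40 subunit of Polycomb repressive complex 2. *FIE2* (GRMZM2G148924, chromosome 10, 84092833 to 84097287) was at 46.1 and 38.9 RPKM. *FIE1* (GRMZM2G118205), known in maize as a gene expressed in the endosperm, had 0.150 RPKM in wild type and listed at 0 in *lbl1*, and no fold is given.

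**Figure D4:**
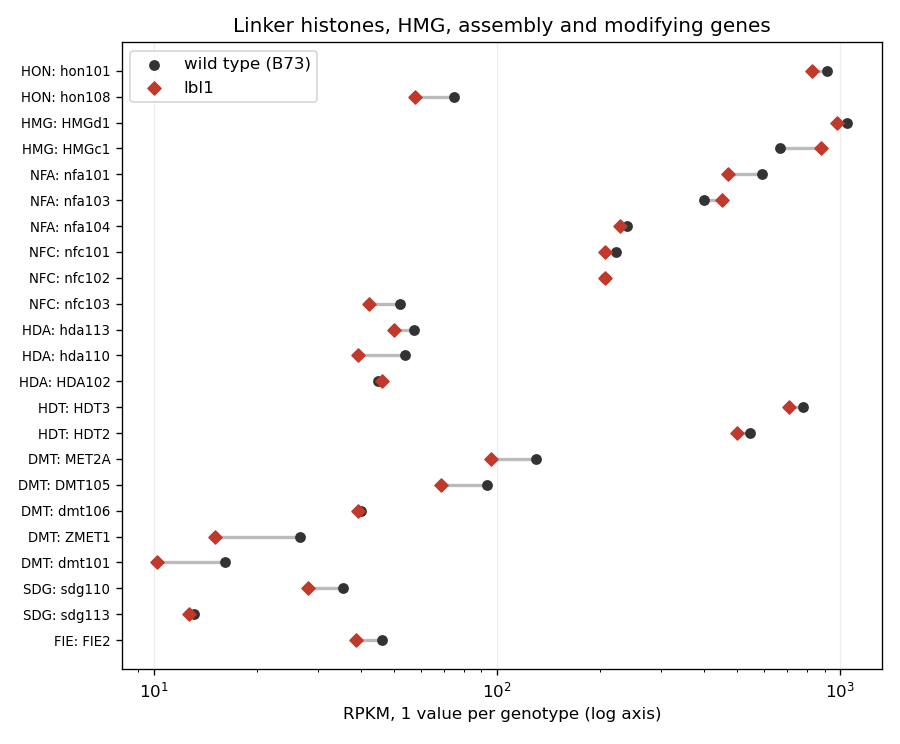
RPKM on a log axis for the 23 members other than H3 and H4 at 1 RPKM or more in both genotypes, grouped by name prefix, with wild type as circles and *lbl1* as diamonds. In 19 of the 23 the diamond lies left of the circle, where 57.4% of all genes were lower. Against the median gene, 16 of the 23 were lower and 7 higher. The widest gaps are those of *ZMET1* and *dmt101*.

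Other chromatin genes that the rule did not take gave a similar range. Of 7 further genes with names of chromatin gene families, 6 were lower and 1 higher, with a median log2 ratio of −0.18. Over all genes 57.4% were lower, with a median of −0.10. On the scale of the median gene, 4 of the 7 were lower and 3 higher. *cha101* (GRMZM2G177165) alone passed 1.5-fold, at 77.5 RPKM in wild type against 45.5 in *lbl1*, and its locus is shared with another gene. *sgb102* and *sgb101*, the highest by level, were at 97.2 and 93.5 RPKM in wild type, against 108 and 82.7 in *lbl1*. Of 18 more genes picked by name, 13 were lower and 5 higher, with a median log2 ratio of −0.17, beside the same 57.4%. Against the median gene, 11 of the 18 were lower and 7 higher. *MNB1B*, an HMG-box gene, was at 2595 and 2179 RPKM. *SSRP1* of the histone chaperone complex FACT was at 156 and 145 RPKM. *EZ3*, a homolog of the Polycomb methyltransferase gene E(z), was at 5.80 and 3.81 RPKM and alone passed 1.5-fold. The genes named *EZ1* and *EZ2* were at 55.7 and 6.66 RPKM in wild type, against 52.7 and 6.33 in *lbl1*.

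DNA replication and cell cycle genes were lower for 12 of 13 names, with a median log2 ratio of −0.28. Of these, 4 were at least 1.5-fold lower and none that much higher. Over all genes, 57.4% were lower, 23.6% at least 1.5-fold lower and 19.2% at least 1.5-fold higher. Against the median gene, 10 of the 13 were lower and 3 higher. *MCM6* (GRMZM2G021069, chromosome 8, 110516644 to 110522956), a subunit of the replicative helicase, had 104 RPKM in wild type against 43.5 in *lbl1*, a 2.38-fold difference. *orc2*, of the origin recognition complex, was at 27.9 and 16.8 RPKM, and the retinoblastoma-related gene *RBR3* at 50.3 and 26.8 RPKM. *cycD4*, a D-type cyclin gene, was at 8.73 and 5.20 RPKM. Below 1.5-fold, *orc1* was at 21.5 and 14.8 RPKM and *RBR2* at 4.12 and 2.85 RPKM. Closer to the median gene, the sliding clamp gene *PCNA* was at 123 and 116 RPKM, and *FEN1*, which removes primer flaps, was at 130 and 124 RPKM. Ratios in this list thus ran from 0.420 for *MCM6* to 1.08 for the kinase gene *CDC2*.

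**Figure D5:**
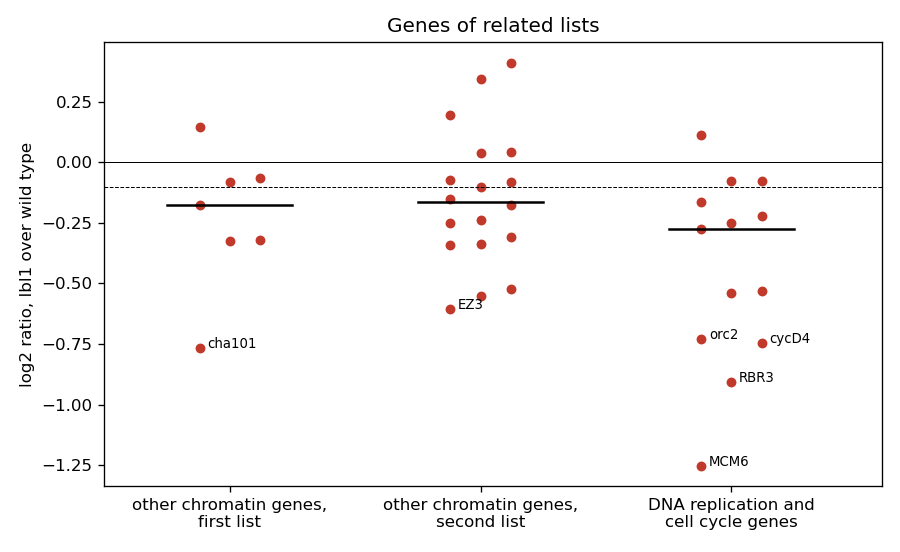
Log2 ratio of *lbl1* over wild type for the 7, 18 and 13 genes of the related lists, with 1 point per gene, the list median as a bar, and the median gene of the table at −0.10 as a dashed line. Genes at least 1.5-fold apart are named, and *MCM6* lies lowest at −1.25.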

How the data were processed

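RNA libraries (TruSeq) of 2 wild-type and 2 *lbl1* apex samples were analysed. The authors mapped trimmed reads to B73 RefGen_v2 with TopHat 1.2.0 and ran Cuffdiff 1.0.3 with a minimum of 50 alignments. The deposited RPKM values pool both samples of a genotype. Numbers of reads were not used here, so depth and counting error are unknown. The fold changes, test statistics, p-values and q-values of the authors' own comparison were not used. Small RNA libraries were not analysed here, and 1 tissue marker is not reported here.

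Ratios of the deposited RPKM values used no pseudocount. A gene was compared at 1 RPKM or more in either genotype, and medians took genes at 1 RPKM or more in both. Starts count from 1. Overlapping genes are those listed at the same locus, as 14 members are. Of the 48 members, 27 matched a RefSeq synonym (NAM-5.0), whose coordinates were not used. Lists by RefSeq description could not be formed, so the second chromatin list and the replication list were chosen from names in the table. Members and lists were chosen with earlier results of these data known. Any member could be named, in full when 1.5-fold apart, highest in its group or at 0. Calculations were tested on simulated data and used Python 3.11.15, numpy 2.4.6, pandas 2.3.3 and matplotlib 3.10.9.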

Additional observations from a re-analysis of the deposited data

How the results depend on the processing

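Scaling *lbl1* to the median gene left 3 members past 1.5-fold in place of 6, and moved the median log2 ratio of the members from −0.13 to −0.028. Scaling to the 75th percentile or the summed RPKM, a pseudocount of 1 RPKM, a minimum of 5 RPKM and the use of genes whose test by the authors is listed as completed, which drops *HMGc1* and *hda110*, changed none of the 3 summary values by as much. No member lay within 50 Mb of *lbl1*, so leaving such members out changed nothing. Leaving out names that an annotation shows to be no chromatin gene was not run, since no gene descriptions were used here. The number past 2-fold went from 1 to 2 with no minimum, and to 0 without members at shared loci or without H3 and H4, since that member is GRMZM2G418258. Without H3 and H4, 2 members passed 1.5-fold. Leaving out H3 and H4, like summing overlapping genes, was chosen after seeing the data. Summing gave 0 members past 2-fold, 10 past 1.5-fold and a median of −0.23. The number of the 11 name groups with a median below 0 was 9 as deposited and 8 when scaled to the median gene. As deposited, the median of all genes was itself below 0, at −0.10. No paired analysis was possible because the table pools the 2 samples of each genotype, and for the same reason no sample could be left out.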
